A study of Oryza sativa with 19 samples.

Results

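The 21761 gene models described here were the predicted rice genes whose probe name ends in CDS (coding sequence) on a pair of 60-mer oligo-array designs called S1 and S2. They made up 21761 of the 84068 non-control probes of the series, with 10617 models on S1 and 11144 on S2. Every model had 1 CDS probe and was on 1 design only, so values of S1 and S2 are those of different models. The japonica variety Nipponbare (NB) gave RNA of shoot, root, panicle and callus, the indica variety IR64 gave RNA of shoot, and all were untreated plants or cultures with no transgene named in the labels. Each array was hybridised with the same RNA in its Cy3 and Cy5 channels, and each group had 2 replicate arrays per design, except for NB panicle with 1 array on S2, which gave 19 arrays. Per the labels, shoots grew 10 days in soil in a greenhouse, roots 10 days in hydroponic culture, panicles in the field, and callus 28 days on a solid callus induction medium. The study's methods give an older age for the shoots than the labels, and describe RNA pooled over plants with panicles taken at the late booting stage. Tissue, growth environment and age cannot be told apart in these groups. The labels give Trizol for IR64 shoot and an RNeasy kit for all NB tissues, while the methods give Trizol for all shoots. Nothing says that the replicates came from separate plants, so SD and p-values may measure technical spread only.

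A predicted gene model is a gene structure that software proposes from genome sequence, and it may or may not be transcribed. An oligo-array asks, for each model at once, whether labelled RNA binds the probe above the background of the slide. Seedling shoots carry out photosynthesis, roots take up water and nutrients, panicles bear the developing flowers, and callus is a mass of dividing, undifferentiated cells. Genes limited to 1 tissue and genes used in all tissues are therefore both known in rice. The model identifiers matched 0 entries of the reference gene table and the probe sequences were masked in the files, so no model is given a gene name, a role or a sequence. For the same reason the tissue labels could not be checked against marker genes such as those of chlorophyll-binding proteins. The sources used here do not say what the number before ".m" in an identifier stands for, and it is called the prefix.

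Signals were scaled to a median of 1000 over the non-control probes of each array and channel, and levels are log2 of that scaled signal, averaged over the channels. On this scale the array median lies at 9.97 and the cap of 100000 at 16.61. An array detected a model when both channels were well above background, and a group detected it when all of the group's arrays did. By this rule 8890 of the 21761 models (40.9%) were detected in all 5 groups and are called broad. A further 6052 models (27.8%) were detected in no group and are called silent. Another 2486 (11.4%) were detected in 1 tissue only, where NB and IR64 shoot count as 1 tissue, and 4333 (19.9%) were intermediate. Over all 84068 probes 59.7% were broad, 13.2% silent and 7.47% detected in 1 tissue only. The CDS models thus held more silent and fewer broad members than the arrays as a whole.

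The classes of CDS models lay at different levels. The broad models had a median level of 10.56 in NB shoot, 10.22 in root, 10.18 in panicle, 10.17 in callus and 10.70 in IR64 shoot. The intermediate models had medians from 8.36 in panicle to 8.91 in IR64 shoot, below the array median in every group. The silent models had medians of 7.13 in NB shoot, 6.80 in root, 6.5 in panicle, 6.76 in callus and 7.25 in IR64 shoot. Silence was a matter of the rule for many of them, since 2738 of the 6052 (45.2%) were detected on at least 1 array. Only 3314 models (15.2%) were detected on none. Of the silent models, 877 on S1 and 1181 on S2 were detected on NB callus replicate 1, against 58 and 7 on NB callus replicate 2. Without NB callus replicate 2 the count of silent models was 3994. In the broad models the highest and lowest of the 5 group means differed by a median of 1.08 on the log2 scale. The difference was below 1 in 3890 of them (43.8%) and above 3 in 503 (5.66%).

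The share of CDS models detected depended on the array. The mean share with its SD over n = 2 arrays of S1 was 63.9% ± 7.05 for NB shoot, 69.9% ± 2.52 for root, 68.5% ± 0.939 for panicle, 70.6% ± 10.4 for callus and 64.7% ± 7.70 for IR64 shoot. The S2 arrays, again n = 2, gave 57.3% ± 11.4 for NB shoot, 57.5% ± 17.4 for root, 60.8% ± 26.5 for callus and 60.9% ± 14.9 for IR64 shoot, and the 1 panicle array gave 67.5%. The replicates lay 9.97 to 14.6 points apart in NB shoot, IR64 shoot and callus of S1 and 16.2 to 37.5 points apart in the groups of S2 with 2 arrays, but only 3.57 and 1.33 points apart in root and panicle of S1. With 2 arrays a group the smallest possible exact p is 0.333. In 9 of 9 replicate pairs the array with the higher median background-subtracted signal detected more of the models, by 1.33 to 37.5 percentage points. The S1 arrays had medians of 54.7 to 167.0, and the S2 arrays 37.5 to 178.7. Its part in the shares was not tested.

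**Figure D1:**
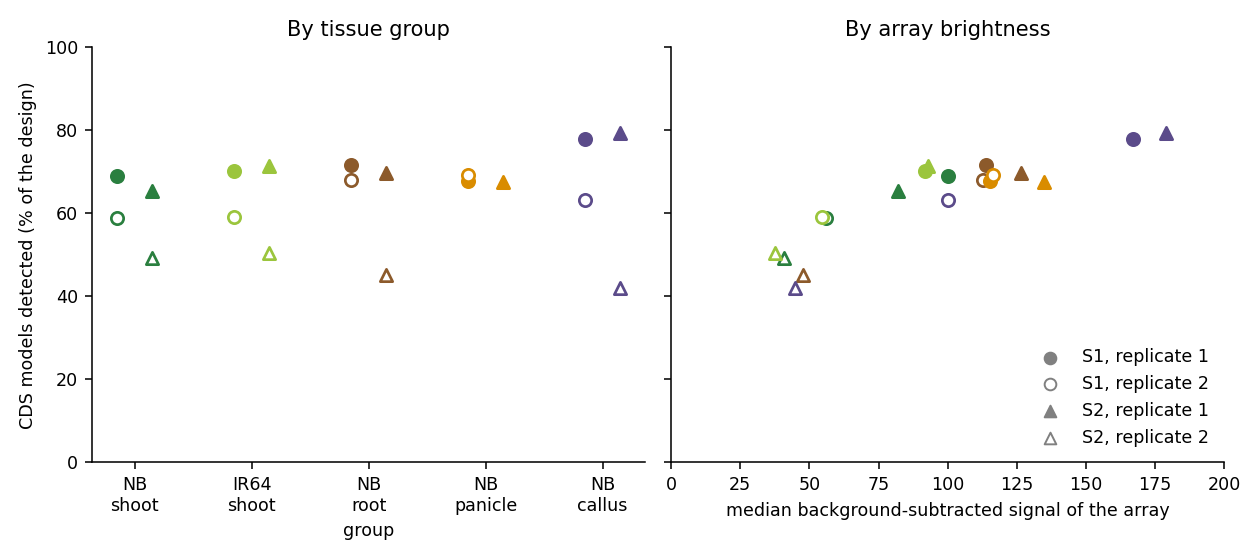
Share of the CDS models of a design that were detected on each of the 19 arrays (percent, 1 point per array), by group on the left and against the median background-subtracted signal of the array (linear intensity) on the right. Circles are S1, triangles S2, filled points replicate 1 and open points replicate 2, and the shares run from 42.0% to 79.5%.

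Among the 2486 models detected in 1 tissue, panicle was the commonest, with 1508 models (60.7%). This was near the share over all probes, where panicle alone held 3486 of 6280 (55.5%). Root followed with 317 (12.8%), callus with 232 (9.33%), IR64 shoot alone with 192 (7.72%), both shoots with 136 (5.47%) and NB shoot alone with 101 (4.06%). Over all probes these shares were 14.5%, 15.5%, 5.76%, 5.08% and 3.66%. The panicle count of the CDS models rested on S2, which held 1322 of the 1508. On S2 a panicle model had to be detected on 1 array only, while the other groups needed 2. On S1, where every group had 2 arrays, the order was different, with 233 models in root only, 186 in panicle only, 166 in callus only, 117 in IR64 shoot only, 96 in both shoots and 61 in NB shoot only. When only the replicate 1 array of each group was used on both designs, an alternative chosen after seeing the data, panicle alone held 72 models on S2 and 95 on S1, and callus alone held 474 and 383. Over this class as a whole, median levels were 8.11 in NB shoot and 8.26 in IR64 shoot, against 7.73 in root, 7.68 in panicle and 7.67 in callus. Detection in 1 tissue therefore need not mean the highest level there. The 1-tissue models were dim in their tissue. Their median level there ran from 7.92 for panicle to 8.98 for both shoots, and few passed a scaled signal of 1000 there, the most being 44 of the 317 root models.

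A scaled signal above 1000, the stricter threshold the study used with cross-hybridisation in mind, gave a different view of the tissues. Of the 21761 models, 7449 (34.2%) passed it somewhere in NB and 4264 (19.6%) did so in each of the 4 NB tissues. NB shoot had 6389 models above it (29.4%), root 5546 (25.5%), panicle 5260 (24.2%), callus 5349 (24.6%) and IR64 shoot 6877 (31.6%). Over all probes the shares in the same order were 50.3%, 50.6%, 50.1%, 51.0% and 50.5%, which the scaling to a median of 1000 keeps close together. In the CDS models every shoot array was above every array of the other tissues in this share. The 4 NB shoot arrays lay between 28.8% and 30.1% and the 4 IR64 shoot arrays between 29.6% and 32.7%. The root arrays lay between 22.3% and 26.9%, the panicle arrays between 22.2% and 24.9%, and the callus arrays between 20.5% and 26.8%. The order was not particular to CDS models. In the gene models with an END probe (next paragraph) the lowest shoot array had 34.2% and the highest other array 34.0%. Of the 1662 CDS models above 1000 in exactly 1 NB tissue, 1006 (60.5%) passed it in shoot, 278 in root, 212 in callus and 166 in panicle. Over all probes the same share for shoot was 37.8%. With normexp background correction, loess and Aquantile normalization the share of CDS models was 61.1%. The silent models also had their higher medians in the shoots, 7.13 and 7.25 against 6.5 to 6.80 elsewhere, and the part of the background in the shoot excess was not tested.

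The CDS models were set against the 14331 gene models that carry a probe marked END instead. No model carried both. On S1 the share detected was lower for CDS than for END models on 10 of 10 arrays, by a mean difference of -7.89 percentage points ± 2.34 (SD, n = 10; exact sign-flip permutation test, two-sided, p 0.00195, the smallest that 10 arrays can give). On S2 it was lower on 9 of 9 arrays, by -7.09 points ± 3.68 (SD, n = 9; exact p 0.00391, again the smallest possible). The gap ran from -6.5 to -4.72 points on the NB shoot arrays, -6.58 to -2.19 on those of IR64, -12.0 to -6.76 in root, -10.3 to -7.35 in panicle and -13.9 to -4.69 in callus. When a positive and significant signal counted as detected, the mean difference was -2.83 points on S1 and -3.06 on S2, still lower on all 19 arrays. The arrays share the same probes and are replicates of 5 groups, perhaps technical ones, so they are not independent units. The exact p is therefore smaller than 5 groups could give, and the test speaks of these probes over arrays only. By class, 49.3% of the END models were broad and 18.4% silent.

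The 12 prefixes, 9629 to 9640, held between 1321 and 2294 CDS models each. The share of silent models ran from 24.4% in prefix 9631 to 30.3% in prefix 9632. Prefix 9631 had 471 silent models of 1933, and 45.1% of its models were broad. Prefix 9632 had 617 silent models of 2036, and 39.3% were broad. The lowest share of broad models was 36.1%, in prefix 9639, which also had the highest share of intermediate models (23.0%). On single arrays prefix 9631 was above the share detected over all CDS models on 19 of 19 arrays, by 1.5 to 5.19 points. Prefix 9629, the one with most models, was also above it on 19 of 19 arrays, by 0.0108 to 5.52 points. Prefix 9632 was below it on 19 of 19, by -3.52 to -0.14 points. Prefix 9631 had the lowest silent share on both designs, 24.1% on S1 and 24.6% on S2. Prefix 9632 had the highest on S1, 28.9%, whereas on S2 its 31.6% was below the 32.8% of 9640. In END models the highest silent share was also that of 9632 (21.1%), while the lowest was that of 9634 (15.3%). The shares of 1-tissue models ran from 10.5% to 13.1% over the prefixes. These are descriptions of the models, and no test was made between prefixes.

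**Figure D2:**
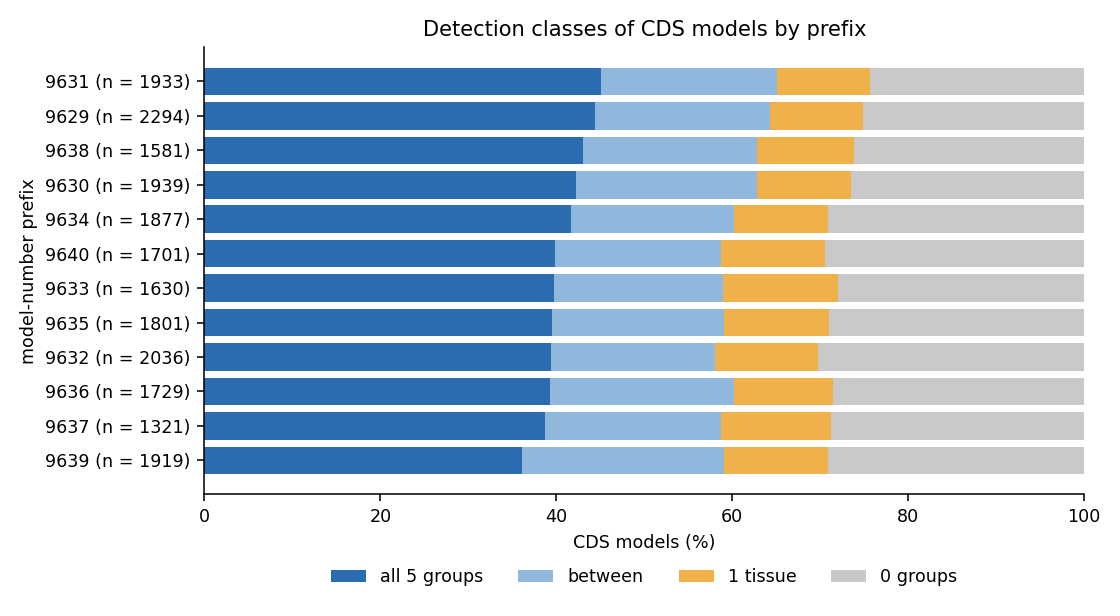
Percent of the CDS models of each prefix that were detected in all 5 groups, in 1 tissue, in 0 groups or in between, with the number of models beside each prefix. Bars are ordered by the share detected in all 5 groups, which runs from 36.1% in 9639 to 45.1% in 9631.

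The number after ".m" also went with the classes. Within each prefix the models were ranked by this number and cut into 10 bins of equal size. The share of silent models was 24.8% in bin 1, 32.8% in bin 5 and 23.8% in bin 10. The share of broad models ran the other way, with 42.3%, 37.3% and 43.5% in the same bins. Bins 4 to 6, chosen after their values were seen, had a lower share detected than the rest on 19 of 19 arrays, by -6.43 to -3.45 points. They had a higher share of silent models in 12 of 12 prefixes, by 1.89 points in 9631 to 9.75 points in 9629. The END models, ranked in the same way, had 17.4% silent in bin 1, 23.8% in bin 5 and 14.1% in bin 10. The gene name of each probe ends in a further number, whose meaning is not stated in the sources used here. In 5 bins of this number, the bin with the largest values, 1083 to 12993, had 32.8% silent and 32.0% broad models, against 24.7% and 45.6% in the bin with the smallest. The bins were set side by side without a test.

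**Figure D3:**
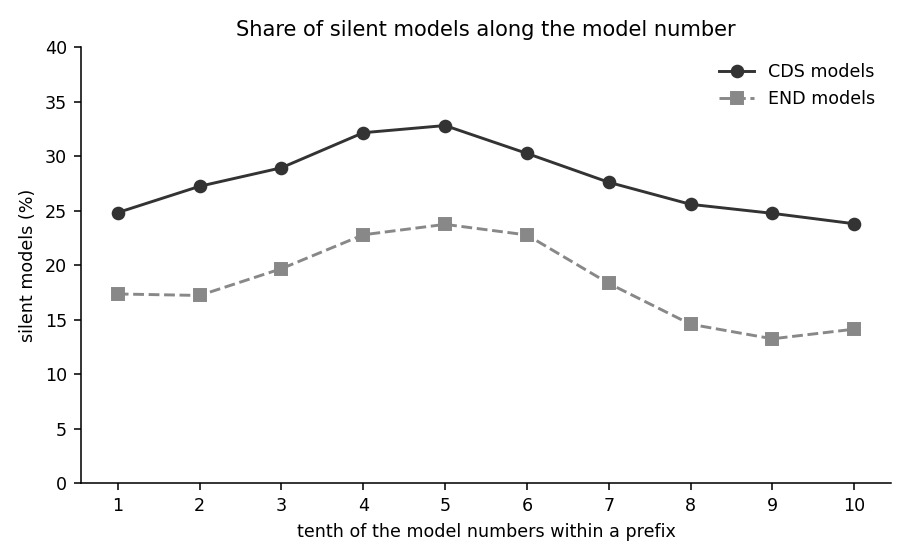
Percent of models detected in 0 of 5 groups, by bin of the model numbers within a prefix (10 bins of equal size), for the CDS models (circles) and the END models (squares). Both lines are highest in bin 5, at 32.8% and 23.8%.

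The pairs of tissues were compared to find which models differed. The 15709 models detected in at least 1 group entered limma's fits, 7810 on S1 and 7899 on S2, and the 6052 silent models did not. A model could enter only through a group where it was bright, so the filter and the test are not independent, and counts describe the models that entered. At Benjamini-Hochberg adjusted p below 0.05, 3280 of them (20.9%) were called in at least 1 of the 6 pairs of NB tissues, against 36.7% of all probes tested. The share called was 23.2% in broad, 18.6% in intermediate and 16.5% in 1-tissue models. Callus against shoot had the most calls and panicle against root the fewest in this fit. With only the groups compared in the fit, panicle against shoot had the most (1487) and callus against panicle the fewest (158), and with the scan day as a block callus against panicle also had the fewest (930).

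In root against shoot, 558 models were called higher in root (3.55%) and 891 lower (5.67%), against 11.6% and 8.03% of all probes tested. In panicle against shoot, 446 were higher in panicle (2.84%) and 1007 lower (6.41%), against 9.52% and 6.34%. In callus against shoot, 802 were higher in callus (5.11%) and 1441 lower (9.17%), against 13.7% and 10.7%. In each of these 3 pairs the CDS models had more calls towards shoot, whereas all probes tested had more calls away from it. The END models had 844 higher and 719 lower in root, 645 and 743 in panicle, and 1076 and 1025 in callus. More calls towards shoot in the panicle pair were thus not particular to CDS models. Scaling to the 75th percentile made the panicle split of the CDS models 389 higher and 1581 lower. The split of all probes turned towards shoot on S1 with that scaling, to 5602 higher and 6175 lower in panicle and 6562 and 6719 in callus, so that the contrast in direction between CDS models and all probes depended on the scaling. Over both designs the excess towards shoot held in the 3 pairs with the replicate number as a block, the 75th percentile and the scan day as a block. On each design NB shoot replicate 1 was alone on its scan day, so the scan-day block left these contrasts to NB shoot replicate 2. The excess also held over both designs with normexp, loess and Aquantile. With these it turned on S2, with 258, 139 and 342 higher and 235, 95 and 270 lower in root, panicle and callus. Already without that correction the S2 counts were near even in root (204 higher, 226 lower) and callus (257 and 263). Without NB shoot replicate 2 the excess over both designs was small, with 387 higher and 415 lower in root, 360 and 365 in panicle, and 558 and 632 in callus. The median difference over the CDS models tested was -0.29, -0.36 and -0.38 in the 3 pairs, and over all probes tested -0.06, -0.08 and -0.10. Between arrays of the same replicate number the root minus shoot median of the CDS models was -0.0045 on S1 replicate 1, where the arrays had similar brightness (114.0 and 100.3), and -0.46 on S1 replicate 2, where root was the brighter (112.7 against 56.1). On S2 it was -0.20 on replicate 1, where root was much the brighter (126.4 against 82.0), and -0.49 on replicate 2, where both were dim (47.9 against 40.7). The shoot array was the dimmer one in each pair, and the replicate 1 arrays of root and shoot had different scan days on both designs. The part of brightness was not tested.

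Between the tissues other than shoot the counts were smaller. In panicle against root, 216 models were higher in panicle (1.38%) and 301 lower (1.92%), against 4.61% and 4% of all probes tested. In callus against root, 352 were higher in callus (2.24%) and 503 lower (3.20%), against 5.59% and 7.17%. With normexp, loess and Aquantile this split turned to 576 higher and 440 lower, and with the scan day as a block it was 737 and 692. In callus against panicle, 212 were higher in callus (1.35%) and 401 lower (2.55%), against 4.16% and 6.6%. This split also turned with normexp, loess and Aquantile, to 380 higher and 316 lower, and with the 75th percentile it was 342 and 385. No direction is therefore given for these last 2 pairs as a whole.

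With the replicate number as a block, the counts were 3341 in root against shoot, 3473 in panicle against shoot, 4437 in callus against shoot, 1023 in panicle against root, 1850 in callus against root and 1332 in callus against panicle. With the scan day as a block they were 2709, 2481, 3947, 1030, 1429 and 930. All replicate 2 arrays had 1 scan day, which held 1 array of each group and design apart from NB panicle on S2, so no test within a scan day could be made. Among the replicate 1 arrays, NB shoot had a scan day of its own, callus and IR64 shoot shared another, and root and panicle yet another. In replicate 1, scan day therefore cannot be told apart from the groups compared, except in panicle against root, where both groups shared a scan day. Without 1 replicate of a compared group, the counts fell to 604 to 866 in root against shoot, 525 to 725 in panicle against shoot and 242 to 331 in panicle against root, whichever of the 4 replicates was left out. Leaving out NB panicle replicate 1 also removes panicle from S2. Callus against shoot gave 1319 without NB callus replicate 2, 1327 and 1190 without NB shoot replicates 1 and 2, and 2604 without NB callus replicate 1. In callus against root there were 557 without NB callus replicate 2 and 417 and 357 without NB root replicates 1 and 2, and callus against panicle gave 260 and 294 without NB panicle replicates 1 and 2.

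**Figure D4:**
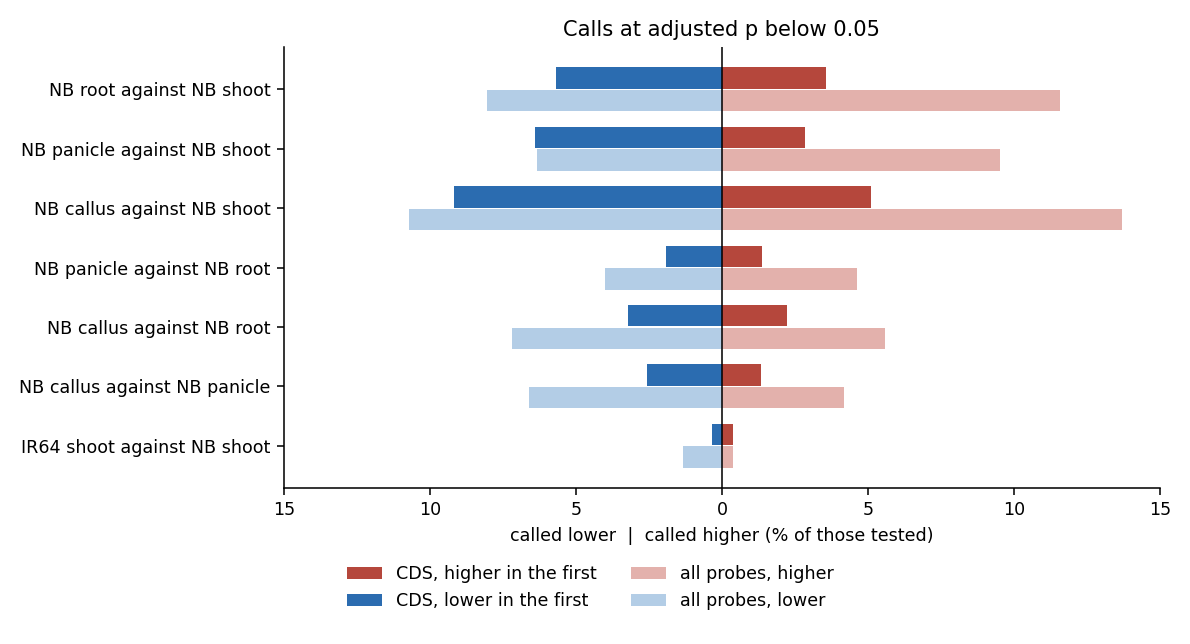
Percent of the 15709 CDS models tested (dark bars) and of all 72985 probes tested (pale bars) that limma called lower (left of 0) or higher (right of 0) in the first group of each pair at adjusted p below 0.05. In the 3 comparisons with NB shoot the CDS bars are longer to the left and those of all probes longer to the right.

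Models called higher in 1 NB tissue than in all 3 others, each in its own contrast, were counted as enriched. NB shoot had 531 such models (3.38%, against 3.72% of all probes tested), root 199 (1.27%, against 2.39%), panicle 86 (0.547%, against 1.81%) and callus 137 (0.872%, against 2.22%). The shares of shoot-enriched models were close to those of all probes, and the shares for the other tissues were below them. The median difference to the nearest other NB tissue was 1.51 for shoot, 2.51 for root, 2.18 for panicle and 1.61 for callus. Of the 531 shoot models 357 were broad and 88 were detected in 1 tissue, whereas 64 of the 199 root models were detected in root alone. Most were on S1, with 478 of the shoot and 130 of the callus models. The fit with the replicate block gave 1172, 337, 198 and 314 in the order shoot, root, panicle and callus. With normexp, loess and Aquantile callus had 306. It had 45 without NB callus replicate 2, 45 and 36 without NB panicle replicates 1 and 2, and 72 and 67 without NB root replicates 1 and 2. Shoot had 350 and 208 without NB shoot replicates 1 and 2, 250 without NB root replicate 2, and 246 and 278 without NB panicle replicates 1 and 2. Root had 129 without NB shoot replicate 1, 91 without NB root replicate 2 and 107 without NB panicle replicate 1. Panicle had 53, 54 and 50 without the same 3 libraries. Over the 12 prefixes the share of shoot-enriched models ran from 2.64% to 5.06%.

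The shoot models with the largest differences were 9635.m00620 and 9634.m00739. Model 9635.m00620 stood at the cap of 16.61 on both NB shoot arrays and both IR64 shoot arrays of S1, and at 9.69 and 8.79 in root, 8.39 and 8.67 in panicle, and 9.91 and 9.57 in callus. The shoot arrays of both varieties were far above all others, and the model was detected on 10 of 10 arrays. Its difference to callus, the nearest NB tissue, was 6.87 (SE 0.35, limma's adjusted p 1.97e-06), a 117-fold difference that the cap makes a lower estimate. The cap also gave both shoot groups an SD of 0 and hides their spread, so the SE and adjusted p may be too small. All models named here with an adjusted p were picked for large differences, so these p are descriptive only. Model 9634.m00739 had 15.11 and 15.29 in NB shoot and 12.57 and 14.04 in IR64 shoot, against 7.93 and 9.0 in root, 8.56 in panicle and 6.86 and 7.24 in callus. It was higher in NB shoot than in panicle by 6.64 (SE 0.73, limma's adjusted p 0.00686). Without NB shoot replicate 1 or 2 that adjusted p was 0.0529 and 0.0609, and with only shoot and panicle in the fit it was 0.175.

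The root models were silent elsewhere by the group rule. Model 9636.m00070 had 14.40 and 15.27 in root, while its other 7 arrays on S2 lay between 5.64 and 7.90. It was at least 109-fold higher in root than in NB shoot, where it was not well above background, with a fitted difference of 7.30 (SE 0.61, limma's adjusted p 0.000658). A lower bound of this kind sets the bright mean against the higher of the dim value and the lowest detected signal of each array. Model 9638.m02746 had 13.28 and 14.39 in root and between 5.68 and 7.67 on the other 7 arrays. It was at least 54.7-fold higher in root than in NB shoot (limma's adjusted p 0.000762). Over the 10 alternatives run for each, the difference to NB shoot was 4.73 to 7.73 in 9636.m00070 and 3.94 to 7.51 in 9638.m02746. These fits reuse the same arrays. Both models entered the main fit through root alone and were picked for their large differences, so their adjusted p are descriptive only.

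The panicle models rested on the single panicle array of S2, whose spread is assumed to be that of the other groups. Model 9633.m02842 stood at the cap there and between 7.19 and 10.15 on the other 8 arrays. The difference to NB shoot, where it was well above background on 1 of 2 arrays, was 7.72 (SE 1.26, limma's adjusted p 0.0211), a lower estimate because of the cap, and without NB shoot replicate 1 or 2 the adjusted p was 0.0861 and 0.128, and with only these groups in the fit it was 0.175. Model 9631.m01822 had 13.90 in panicle and at most 8.91 elsewhere. It was 50.2-fold higher than in callus (limma's adjusted p 0.0122, and 0.367 with only these groups in the fit). In callus, 9631.m04963 had 15.74 and 16.61 against 9.24 to 10.79 on the other 7 arrays, on all of which it was detected. It was 41.8-fold higher in callus than in panicle, a lower estimate since 1 callus array was at the cap (limma's adjusted p 0.00338, and 0.359 with only these groups in the fit). Model 9636.m00642 had 10.58 and 11.84 in callus and 5.68 to 8.5 on the other 7 arrays, on none of which it was well above background. It was at least 8.89-fold higher in callus than in NB shoot (limma's adjusted p 0.00361). This model entered the fit through callus alone and was picked for its large difference, so the adjusted p is descriptive only.

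In callus against shoot, 9631.m04963 was also the largest call towards callus, where the fit gave 6.51 (SE 0.44, limma's adjusted p 0.000313). Next was 9634.m00808, with 12.47 and 13.65 in callus and 6.98 and 8.14 in NB shoot. This model was also bright in root, with 11.83 and 12.55, and not well above background in panicle (7.44) or IR64 shoot (7.16 and 8.33). Towards shoot the largest were 9639.m04489 and again 9634.m00739. Model 9639.m04489 was at the cap on both NB shoot arrays and had 16.20 and 16.61 in IR64 shoot, against 7.83 and 8.02 in callus and 10.28 to 10.92 in panicle and root. Its difference between shoot and callus was 8.68 (SE 0.39, limma's adjusted p 0.000266), which the cap in shoot makes a lower estimate. The cap also gave NB shoot an SD of 0 and hides its spread, so the SE and adjusted p may be too small. The model was well above background on 1 of the 2 callus arrays.

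**Figure D5:**
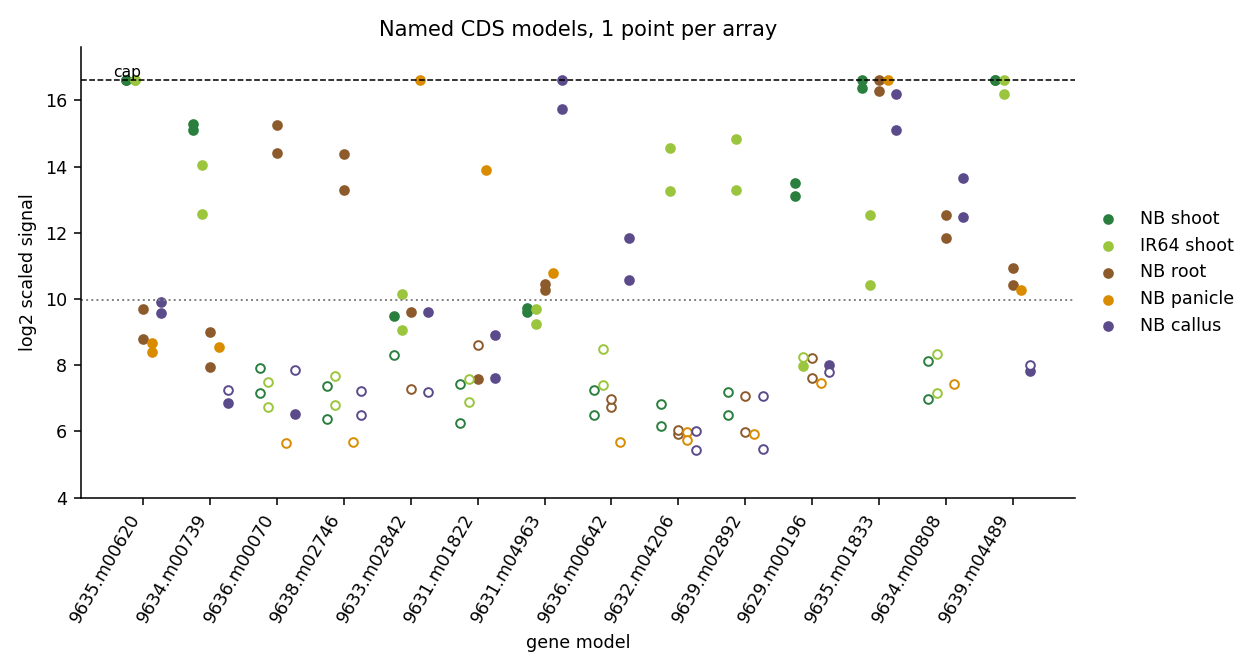
Level of each named model (log2 of the scaled signal) on every array of its design, 1 point per array coloured by group, filled where the model was detected. The dotted line marks a scaled signal of 1000 and the dashed line the cap of 100000, and the brightest points of each model belong to the tissue or variety it was named for (except that 9635.m01833 is as bright in the other NB tissues and 9634.m00808 nearly as bright in root), with IR64 shoot beside NB shoot in the 3 shoot models.

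The shoots of the varieties were compared at the same labelled age. Of the 15709 models 60 were called higher in IR64 (0.382%) and 53 lower (0.337%), against 0.38% and 1.34% of all probes tested. Over both designs added, the CDS models thus lacked the excess of lower calls that all probes had. This was not particular to them, since the END models had 67 higher and 75 lower of 11694 tested. The CDS counts differed by design, with 59 higher and 40 lower on S1 and 1 higher and 13 lower on S2. On S2 the CDS models therefore also had more lower calls. With the replicate block 156 were higher and 132 lower, and with the scan day as a block 66 and 55. With only these 2 groups in the fit, 1 model was called. Without 1 replicate of either group, 31 to 52 models were called, whichever of the 4 was left out. The probes were designed on NB sequence, so that transcript level and a difference in the probed sequence cannot be told apart.

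The variety models included some seen in 1 variety only. Models detected in 1 group alone entered the fit through that group, and all were picked for large differences, so their adjusted p are descriptive only. Model 9632.m04206 on S1 had 13.27 and 14.55 in IR64 shoot and 6.16 and 6.82 in NB shoot, with 5.42 to 6.04 in the other NB tissues. It was not well above background on any NB array, and was at least 72.9-fold higher in IR64 shoot than in NB shoot (limma's adjusted p 8.02e-05). Model 9639.m02892 on S2 had the same pattern, with 13.29 and 14.84 in IR64 shoot and 5.46 to 7.19 on all NB arrays, and was at least 64.2-fold higher (limma's adjusted p 0.0106). In the other direction 9629.m00196 had 13.11 and 13.50 in NB shoot and 7.97 and 8.25 in IR64 shoot, with 7.45 to 8.21 in the other NB tissues. The fitted difference was 36.6-fold (limma's adjusted p 0.00588), with the model well above background on 1 of the 2 IR64 shoot arrays. Model 9635.m01833 was bright in all NB tissues, from 15.09 to the cap, and had 12.53 and 10.44 in IR64 shoot (limma's adjusted p 0.0329). The last 3 of these missed the threshold when any 1 of the 4 shoot arrays was left out, with adjusted p from 0.0911 to 0.159, 0.0911 to 0.13 and 0.0911 to 0.353. With only the shoots in the fit, the adjusted p of the 4 models in the order above was 0.0506, 0.14, 0.108 and 0.316.

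The broad models were most alike between the shoots of the varieties. Across the 5158 broad models of S1, Pearson's r of the group levels was 0.971 between NB and IR64 shoot, 0.945 between root and panicle, 0.930 between root and callus, and 0.838 between NB shoot and callus. On S2, over 3732 models, the same values were 0.966, 0.935, 0.922 and 0.824. These are correlations across models, which are not independent replicates and share arrays. At the top of the range 33 models were at the cap on every array of their design, so the brightest and the steadiest models have no order among them. Models 9630.m00490 and 9636.m04068 on S1 and 9630.m03384 on S2 are examples, the last with 1 callus spot left out as an outlier. Below the cap, chosen after the values were seen, 9632.m04673 was the steadiest model above the array median, with group means from 10.60 to 10.73, and 9631.m03487 came next, with 11.91 to 12.01. Their single arrays ran from 10.14 to 11.24 and from 11.60 to 12.42, wider than the differences between their group means.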

How the data were processed

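Rice 2-colour Agilent oligo-arrays of 2 designs (S1, 10 arrays and S2, 9 arrays) were analysed from the scanner files. The authors' image files were read with Feature Extraction 8.1.1.1 per the file headers (the submitters' processing notes name 7.5). The deposited signal intensity is background-subtracted and dye-normalized within an array but not between arrays. A spot was well above background, per the file headers, at p 0.01 and beyond 2.6 SD of the background. The deposited value tables of log10 dye ratios were not used, because both channels held the same RNA. Here intensities were scaled to a median of 1000 per array and channel, capped at 100000 as in the study's methods, and averaged over channels as log2. Control spots and outlier spots were left out. Probe sequences and a genome were not used here. Members were all non-control probes whose name ends in CDS.

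Linear models were fitted with limma (version 3.58.1 under R 4.3.3, with eBayes and two-sided p) per design with all 5 groups, on probes detected in at least 1 group, with Benjamini-Hochberg adjustment over all probes of a design and pair. Calls of the designs were added. The replicate differences of the groups correlated across probes at 0.114 to 0.638 on S1 and 0.549 to 0.831 on S2, so the replicate numbers of the titles were taken to pair the arrays, and blocked counts are given. In simulated arrays of root against shoot on S1 (36735 probes, 50 changed per size), 2%, 58%, 96% and 100% of changes of 1, 2, 3 and 4 on the log2 scale were recovered. There were 6 false calls. The simulated noise was independent between arrays, so these rates do not carry over to correlated replicates or to S2. Alternatives were the replicate number or the scan day as a block, normexp (offset 50) with loess and Aquantile, scaling to the 75th percentile, no filter on dim probes, only the groups compared, other detection rules and leaving out each replicate. Named models were those with the largest differences per tissue, variety and leading pair, with no overlap between arrays and not saturated throughout, and the brightest and steadiest. Members, classes and rules were chosen with earlier results of these data known. The rest used Python 3.11.15, pandas 2.3.3, scipy 1.17.1 and matplotlib 3.10.9. Precision is limited by how few arrays there are.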

Additional observations from a re-analysis of the deposited data

Results flagged for a closer look

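The share of CDS models detected on 1 NB root array stood apart from the other 3 root arrays. It was 45.2% on S2 replicate 2, against 69.8% on S2 replicate 1 and 71.7% and 68.1% on S1, a gap larger than Dixon's 95% limit for 4 values. That array also had the lowest median background-subtracted signal of the root arrays, 47.9 against 112.7 to 126.4. It was not alone among the S2 replicate 2 arrays, where callus had 42.0%, NB shoot 49.2% and IR64 shoot 50.4%. The 4 values also mix S1 and S2, which carry different models. Chance alone would single out about 1 in 20 such groups, and 4 groups of 4 arrays were examined.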

How the results depend on the processing

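The classes moved most with the detection rule. Silent models numbered 1179 when a positive and significant signal was enough, 3738 when 1 channel well above background was enough, 3314 when 1 array of a group was enough, and 3532 with the first array of each group only (chosen after seeing the data), and 3994 to 7144 when 1 replicate was left out. Models of 1 tissue numbered 937 and 1516 under the first and the third of these rules, and 1614 with the first array of each group only. Broad models numbered 15864 under the first rule. The CDS minus END difference in share detected was -2.83 points on S1 and -3.06 on S2 when a positive and significant signal was enough, and -5.79 and -6.09 when 1 channel was enough, and the counts above 1000 stayed within 1.5 times under the alternatives run. In the fits, the replicate block gave 3341 calls in root against shoot, 3473 in panicle against shoot, 4437 in callus against shoot, 1023 in panicle against root, 1850 in callus against root, 1332 in callus against panicle and 288 in IR64 against NB shoot, with 1172, 337, 198 and 314 models enriched in shoot, root, panicle and callus. With the scan day as a block the first 6 counts were 2709, 2481, 3947, 1030, 1429 and 930, and 1071 models were enriched in shoot and 296 in callus. With only the groups compared, 1145 were called in callus against shoot, 186 in callus against root, 158 in callus against panicle and 1 in IR64 against NB shoot, in fits with fewer arrays. Callus-enriched models numbered 306 with normexp, loess and Aquantile and 227 with the 75th percentile. Scaling to the 75th percentile moved the median difference over all probes in panicle against shoot on S1 from -0.05 to -0.30, and that of the CDS models from -0.39 to -0.64, with 342 higher and 1490 lower calls among the CDS models there. Leaving out 1 replicate gave 604 to 866, 525 to 725, 1190 to 2604, 242 to 331, 357 to 790, 260 to 544 and 31 to 52 calls in the pairs in the same order, and 208 to 618, 91 to 185, 50 to 87 and 36 to 183 enriched models in shoot, root, panicle and callus. Of 156 alternative fits of the named models, 132 kept the call and 156 the direction. The models were picked for large differences with no overlap between arrays, and these fits reuse the same arrays. The kept direction was therefore largely set by the selection and says little about robustness. Some models were counted in more than 1 comparison, and some fits left 1 array in a group. The causes of the changes with the processing were not tested.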
